A study of Mus musculus with 2 samples.

Results

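The striated muscle microRNAs are made in heart and skeletal muscle, and their genes were followed here in whole liver of the mouse embryo. The 9 genes were Mir206, Mir133b, Mir208a, Mir208b, Mir499, Mir133a-1, Mir133a-2, Mir1a-1 and Mir1a-2, taken by name as a fixed list. The deposited count tables list 1973 microRNA genes, 8 of these members among them, and Mir1a-2 was not analysed here. Of the 9, 5 were detected, which here means 10 or more counts in both libraries. Mir206 and Mir133b were taken as skeletal members, and Mir208a, Mir208b and Mir499 as cardiac members. The other 4 were taken as members in copies, whose hairpins share part of their sequence. The data were 2 libraries of small RNA below 30 bases from embryonic day 13.5 liver of the strain B6NCrl, from healthy embryos with both sexes pooled and no treatment named. They are biological replicates 1 and 2 of 1 group, so the tests below compare these libraries and no conditions. Intervals cover counting error only, and the labels name no molecular identifiers.

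A microRNA is cut from a hairpin in its primary transcript, and its seed, bases 2 to 8 from the 5′ end, pairs with target messages. The miR-1 and miR-206 family and the miR-133 family come from bicistronic loci that myogenic factors switch on in striated muscle, and both act in myoblast differentiation. MiR-206 is known as the member restricted to skeletal muscle. MiR-208a, miR-208b and miR-499 are encoded within myosin heavy chain genes and take part in setting the myosin type of cardiac and slow skeletal fibres. The liver at this stage is a blood-forming organ with immature hepatocytes, while these microRNAs are best known from heart and skeletal muscle.

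The mature sequences below are of the arm best known for each of the 5 detected members, and are shown because they decide which reads can be placed at 1 locus. They come from RefSeq on GRCm38.p6, 5′ to 3′, with the seed in capitals.
miR-206-3p: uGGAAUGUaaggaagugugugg
miR-133b-3p: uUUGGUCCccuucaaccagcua
miR-499-5p: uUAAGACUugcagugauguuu
miR-208a-3p: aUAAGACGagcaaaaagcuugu
miR-208b-3p: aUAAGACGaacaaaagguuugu
On the plus strand, miR-206-3p lies at chr1:20679055-20679076, miR-133b-3p at chr1:20682834-20682855 and miR-499-5p at chr2:155622893-155622913. On the minus strand, miR-208a-3p lies at chr14:54949072-54949093 and miR-208b-3p at chr14:54975710-54975731. The tables count a whole hairpin, so the arms of a hairpin cannot be told apart. MiR-208a-3p and miR-208b-3p have the same seed and differ by G10A, A16G and C18U, with the base of miR-208a first and positions counted from 1 at the 5′ end. MiR-499-5p shares the first 6 bases of that seed and has another base at its end. MiR-206-3p shares its seed in the RefSeq table with miR-6349 and miR-6382, whose genes Mir6349 and Mir6382 had 0 counts in both libraries. For Mir1a-1 only the 5p arm was found in that table, and for Mir1a-2 no mature sequence. The seed of miR-1a-3p, of the miR-1 and miR-206 family, was therefore not compared, and the 2 sharers named are not a full list.

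How well a read can be placed was read from these sequences against the 2202 microRNA hairpins of GENCODE M21, on both strands. A read that starts at the 5′ end of miR-206-3p was found in no other hairpin from a length of 11 bases on, and for miR-499-5p, miR-208a-3p and miR-208b-3p from 10 bases on. For miR-133b-3p this took all 22 bases. Without its last base it is also in the hairpins of Mir133a-1 and Mir133a-2. Of the members, 5 shared a word of 20 bases with a hairpin at another locus, namely Mir133b, Mir133a-1, Mir133a-2, Mir1a-1 and Mir1a-2. Mir206, Mir208a, Mir208b and Mir499 shared none. A genome sequence was not used here, so copies outside annotated hairpins were not searched.

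**Figure D1:**
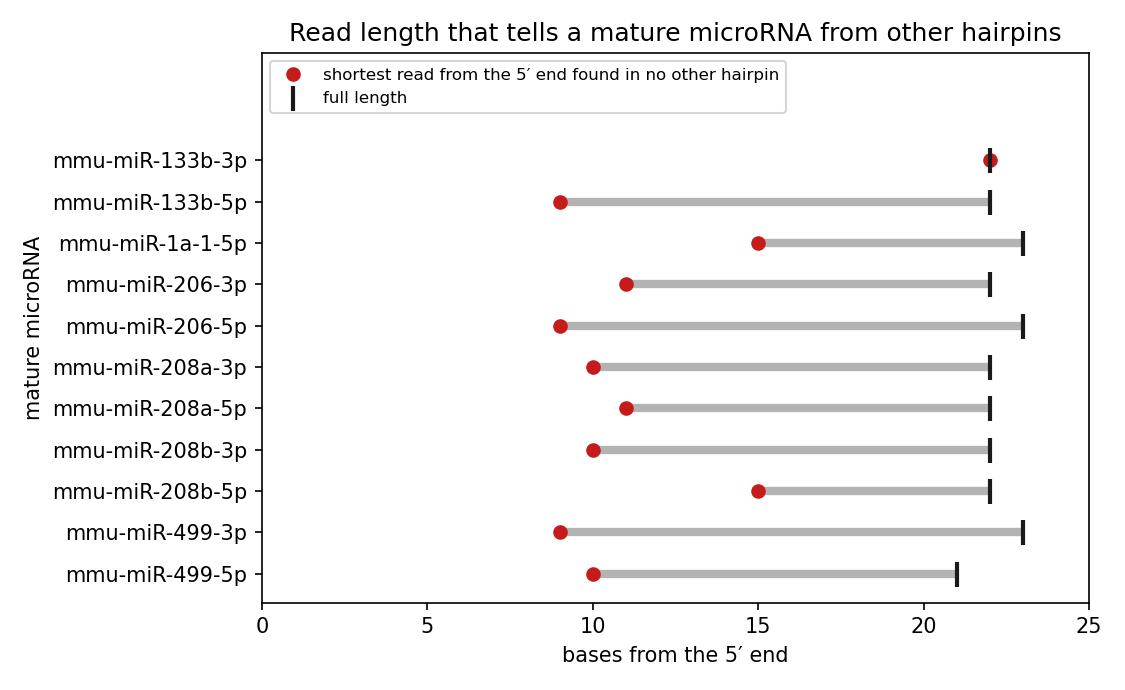
For each mature microRNA of the members in the RefSeq table, the red point gives the shortest read from the 5′ end, in bases, that is found in no other annotated hairpin, and the black mark gives its full length. Mature miR-133b-3p stands apart with both at 22 bases, while miR-206-3p needs 11 of 22.

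The libraries held 4286742 counts on the strand of microRNA genes in replicate 2 and 2607403 in replicate 1, of 12554684 and 7671547 reads. The tables give reads that mapped to several places in a line of their own, with 32.0% of all reads in replicate 2 and 36.7% in replicate 1. That such reads are left out of the gene counts was read from this layout, as the sources used here name no counter. The hepatocyte microRNA gene Mir122 was the most abundant gene, with 80145 CPM in replicate 2 and 79844 CPM in replicate 1 (CPM, counts per 1000000 counts on the strand of microRNA genes).

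Of the 8 members with a row, Mir206 had the most counts in both libraries. Reads of miR-1a and miR-133a that match several places may be missing from these counts. Mir206 (ENSMUSG00000065559.1) lies on the plus strand of chromosome 1 at 20679010 to 20679082 (mm10), in an exon of the long non-coding RNA gene Gm28653. It had 2239 counts in replicate 2 and 2272 in replicate 1, or 522 CPM (exact Poisson 95% interval 501 to 544) and 871 CPM (836 to 908). Its mean was 697 ± 247 CPM (SD, n = 2), which put it at place 113 of 1973 genes, between Mir27b at 702 ± 25.2 CPM and Mir503 at 690 ± 15.4 CPM. The SD of Mir206 exceeded its gap to these neighbours, so its place among them is not firm. Mir122 had 153 times the CPM of Mir206 in replicate 2 and 91.6 times in replicate 1, with no scaling for hairpin length. In a whole organ, fewer cells of a type and less RNA per cell cannot be told apart.

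Mir133b stood far below Mir206, from the same locus. It (ENSMUSG00000065480.1) starts 3686 bases past the end of Mir206 on the same strand, at 20682769 to 20682887, in an exon of the same host gene. It had 37 counts in replicate 2 and 44 in replicate 1, which is 8.63 CPM (6.08 to 11.9) and 16.9 CPM (12.3 to 22.7). Mir206 had 60.5 counts for each count of Mir133b in replicate 2 and 51.6 in replicate 1. Hairpin length, for which these ratios are not scaled, drops out between the libraries. The ratio in replicate 2 was 1.17 times that in replicate 1, with a counting interval of 0.736 to 1.87 that includes no difference. Reads of miR-133b-3p without the last base match the Mir133a loci too, so the count of Mir133b may miss them, and it may hold reads from those loci that carry a mismatch. Neither was tested.

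Both skeletal members were lower in replicate 2. Mir206 stood at 0.599 times its replicate 1 level (95% counting interval 0.565 to 0.636), a log2 difference of -0.74 with an adjusted p of 6.95e-64 (exact binomial test with Benjamini-Hochberg adjustment over 711 genes with a count). Mir133b stood at 0.511 times (0.321 to 0.810), a log2 difference of -0.97 (adjusted p = 0.0158, same exact test). By edgeR's exact test, which allows for the spread between the libraries, neither was called (adjusted p = 0.578 for Mir206 and 0.667 for Mir133b). Their intervals overlap, so the sizes of the 2 differences are not separated. The Poisson intervals of the 2 libraries do not overlap for either gene, and for Mir133b they lie close together. Over all 711 genes, 11.5% were called lower and 8.58% higher in replicate 2. Of the 367 detected genes, 150 were called in either direction with the filter of 10 counts in each library.

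Mir499 led the cardiac members. It (ENSMUSG00000076312.1) lies on chromosome 2 at 155622880 to 155622958, plus strand, in an intron of Myh7b, a myosin heavy chain gene of slow muscle. It had 1001 counts in replicate 2 and 722 in replicate 1, or 234 CPM (219 to 248) and 277 CPM (257 to 298). With 255 ± 30.7 CPM (SD, n = 2) it took place 154, between Mir222 at 259 ± 9.46 CPM and Mir1306 at 251 ± 23.6 CPM, a spread that leaves this order undecided.

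The 2 genes of the miR-208 family were less abundant and differed from each other in level. Mir208b (ENSMUSG00000077928.1), in an intron of Myh7, lies on the minus strand of chromosome 14 at 54975700 to 54975776. Mir208a (ENSMUSG00000065432.1), in an intron of Myh6, lies on the same strand at 54949060 to 54949142, and 26557 bases separate them. Myh7 and Myh6 encode the beta and alpha myosin heavy chains of the heart, of which the beta form prevails in the ventricle of the mouse embryo and the alpha form in the adult. Mir208b had 327 counts in replicate 2 and 145 in replicate 1, or 76.3 CPM (68.2 to 85.0) and 55.6 CPM (46.9 to 65.4). Mir208a had 81 counts in replicate 2 and 25 in replicate 1, or 18.9 CPM (15.0 to 23.5) and 9.59 CPM (6.20 to 14.2). Mir208b thus had 4.04 counts for each count of Mir208a in replicate 2 and 5.80 in replicate 1. The ratio in replicate 2 was 0.696 times that in replicate 1, with a counting interval of 0.408 to 1.16 that includes no difference.

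The cardiac members differed in opposite directions by a test of counting error, and 0 of the 3 were called once the spread between the libraries was allowed for (edgeR exact test, adjusted p = 0.635 for Mir208a, 1 for Mir208b and 1 for Mir499). Mir208a stood at 1.97 times its replicate 1 level in replicate 2 (1.25 to 3.22), a log2 difference of 0.98 (adjusted p = 0.0144, exact binomial test over all genes). Mir208b stood at 1.37 times (1.12 to 1.68), a log2 difference of 0.46 (adjusted p = 0.00888, same exact test). Mir499 stood at 0.843 times (0.766 to 0.929), a log2 difference of -0.25 (adjusted p = 0.00384, same exact test). The intervals of Mir208a and Mir208b overlap each other and not that of Mir499. Mir499 had 2.45 counts for each count of the miR-208 pair in replicate 2 and 4.25 in replicate 1, so the ratio in replicate 2 was 0.578 times that in replicate 1 (0.469 to 0.711).

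**Figure D2:**
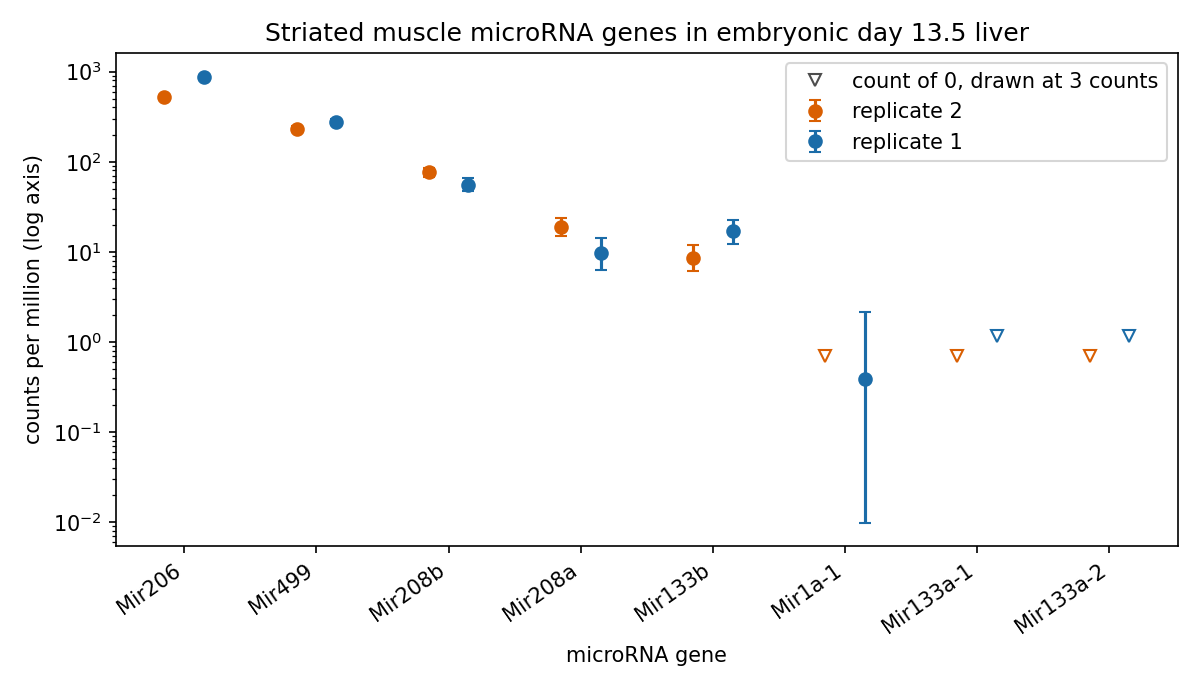
Level of the 8 members with a row, in CPM on a log axis, in replicate 2 (left, orange) and replicate 1 (right, blue). Bars are exact Poisson 95% intervals and open triangles mark counts of 0, drawn at the level of 3 counts. Mir206 and Mir133b are lower in replicate 2, Mir208b and Mir208a are higher, and Mir133a-1 and Mir133a-2 had no count.

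Among the 5 detected members, the order by level was Mir206, Mir499 and Mir208b, in each library and with intervals that do not overlap within a library. Per 100 bases of annotated hairpin, which allows a comparison between genes of unequal length, the means were 955, 323 and 85.6 CPM in the same order. Mir208a and Mir133b, at 17.2 and 10.7 CPM per 100 bases, could not be ranked. Mir208a was the higher of the pair in replicate 2, at 18.9 against 8.63 CPM, and the lower in replicate 1, at 9.59 against 16.9 CPM. A small RNA read covers most of a mature microRNA, so the length of the hairpin is only a rough scale.

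Members in copies gave almost no counts. Mir133a-1 (ENSMUSG00000065399.1, chromosome 18, 10782909 to 10782976, minus strand, in an intron of its host gene Mir133a-1hg) and Mir133a-2 (ENSMUSG00000065460.1, chromosome 2, 180398379 to 180398482, plus strand) had 0 counts in both libraries. Mir1a-1 (ENSMUSG00000070144.1, chromosome 2, 180389048 to 180389124, plus strand) had 0 counts in replicate 2 and 1 count in replicate 1. For reads that map to 1 place, the exact Poisson 95% interval of a count of 0 ends at 0.861 CPM in replicate 2 and 1.41 CPM in replicate 1. Of the windows of 22 bases, 13 of 47 in the hairpin of Mir133a-1 and 13 of 83 in that of Mir133a-2 were found in the other. For Mir1a-1, 7 of 56 windows were also in Mir1a-2 or, on the other strand of that locus, Mir1b. Reads from such windows match several places, and if these are left out of the gene counts, the counts set no limit on the abundance of miR-1a and miR-133a.

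The other rows of the 2 families were also low. Mir1b, annotated on the strand opposite Mir1a-2 at 10785446 to 10785567 of chromosome 18, had 13 counts in replicate 2 and 6 in replicate 1. Mir133c, which lies on its own on chromosome 2 at 29475215 to 29475294, had 0 counts in both. No member with a row had a count on its opposite strand in either library.

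The summed level of the 8 members with a row was 860 CPM in replicate 2, against 1231 CPM in replicate 1. This is 0.0860% of counts in replicate 2 and 0.123% in replicate 1. Mir206 made up 60.8% of this sum in replicate 2 and 70.8% in replicate 1, and Mir499 27.2% and 22.5%. Reads of miR-1a and miR-133a that match several places may be missing from the sum and from these shares. The skeletal sum was 531 CPM in replicate 2 and 888 CPM in replicate 1, while the cardiac sum was 329 and 342 CPM. The counting interval of the log2 difference was -0.83 to -0.66 for the skeletal sum and -0.18 to 0.06 for the cardiac sum. The skeletal sum was thus 1.62 times the cardiac sum in replicate 2 and 2.60 times in replicate 1, a log2 ratio of 1.03 ± 0.48 (SD, n = 2). With 1 group, no test was run on this ratio. The near-equal cardiac sums hold differences of opposite sign, lower for Mir499 and higher for Mir208a and Mir208b. Without Mir499 in the cardiac sum, the log2 ratio was 3.12, and without Mir206 in the skeletal sum it was -4.80.

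**Figure D3:**
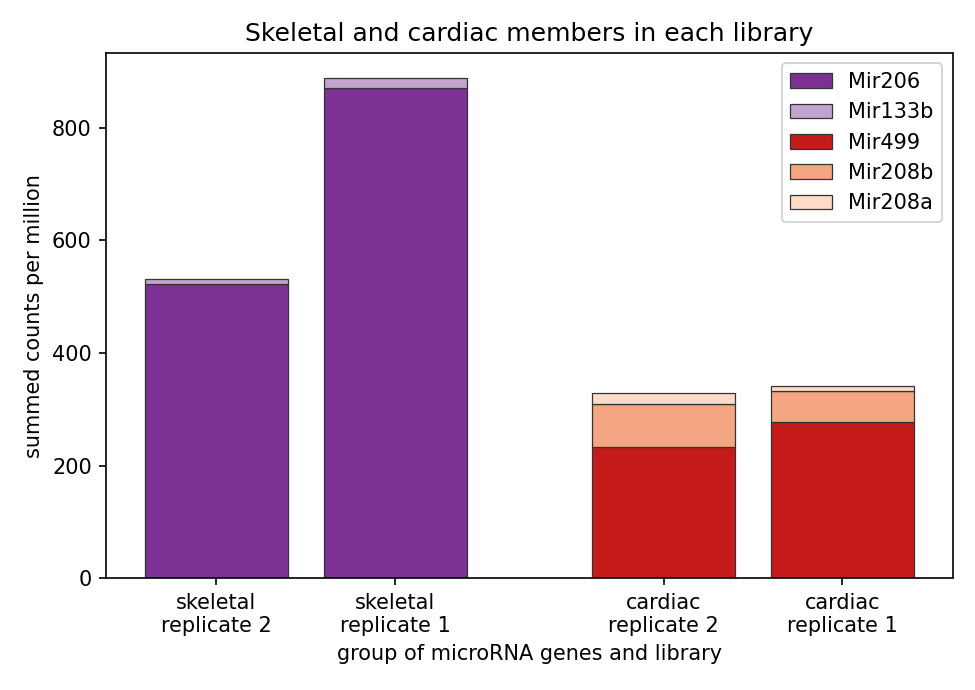
Summed CPM of the skeletal members (left pair of bars) and the cardiac members (right pair) in replicate 2 and replicate 1, with the share of each gene in colour. The skeletal sum is 531 CPM in replicate 2 and 888 CPM in replicate 1, nearly all Mir206, and the cardiac sum is 329 and 342 CPM.

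In all, 5 of the 6 members with a count were called between the libraries, 2 as higher in replicate 2 and 3 as lower, and 20.1% of the 711 genes tested were called. These 5 are the detected members. With the filter of 10 counts in each library, the exact binomial test called 150 of 367 genes. The test covers counting error only, and genes with many counts are called at small differences. Among the 367 genes with at least 10 counts in each library, the median log2 difference was -0.03 and the median absolute difference 0.17. Against the spread of all genes, taken by edgeR as a coefficient of variation of 13.6% between the replicates, 0 members were called (edgeR exact test with Benjamini-Hochberg adjustment, lowest adjusted p = 0.578 for Mir206). That spread was itself taken from these 2 libraries, and the test called 0.422% of genes. By the same edgeR exact test at an unadjusted p under 0.05, the members past it numbered 3, Mir206 (p = 0.0122), Mir208a (p = 0.0216) and Mir133b (p = 0.0299), among 41 genes.

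Among 285 genes with at least 100 counts in total, Mir208a had the place 5 absolute difference, Mir206 place 9, Mir208b place 33 and Mir499 place 82. Mir133b, with 37 counts in replicate 2 and 44 in replicate 1, fell below this minimum and was not placed. Mir208a, with 81 and 25 counts, passed it narrowly, and the counting interval of its log2 difference was 0.32 to 1.69. The median absolute log2 difference of the 285 genes was 0.14. Mir27b and Mir503, the neighbours of Mir206 by level, had log2 differences of -0.07 and 0.05. The genes nearest to Mir206 in log2 difference, over these 2 libraries, were Mir701 at -0.54, Mir3070a at -0.52 and Mir490 at -0.51. All had a smaller difference than Mir206. Of the 285 genes, 3 were lower in replicate 2 by at least as much as Mir206, with Mir206 itself among these 3. Nearest to Mir208a were Mir7b at 0.90, Mir7-2 at 0.89 and Mir181b-2 at 1.16. The measure was the gap in log2 difference, and with 2 libraries it holds 1 number per gene.

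**Figure D4:**
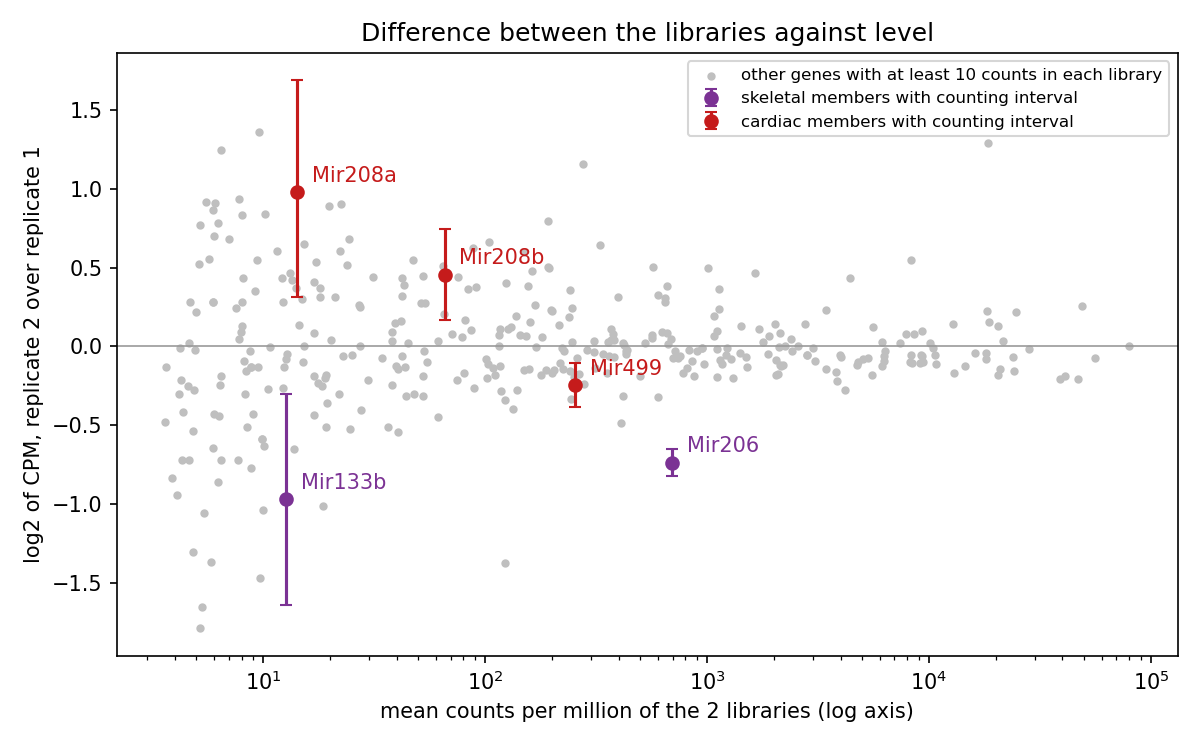
Log2 of CPM in replicate 2 over replicate 1 against mean CPM (log axis), for genes with at least 10 counts in each library, with exact 95% counting intervals for the members. Mir206 lies at -0.74, below the other points drawn near its level, Mir133b at -0.97 and Mir208a at 0.98 lie where all genes spread more, and Mir499 at -0.25 lies near the other genes.

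Other microRNAs with roles in muscle, which are also made in many other cells, were then set beside the members. Of 20 listed genes 19 had a row, and all 19 were detected. The test called 3 as higher in replicate 2 and 6 as lower, against 8.58% higher and 11.5% lower over all genes tested. With the filter of 10 counts in each library, which all 19 pass, 150 of 367 genes were called in either direction. By edgeR's exact test, 0 of the 19 were called. The median log2 difference of the list was -0.03, the same as over all detected genes. Mir486, made in striated muscle and in red cell precursors, stood at 820 CPM in replicate 2 and 834 CPM in replicate 1 (log2 difference -0.02, adjusted p = 0.741, exact binomial test). The 4 most abundant genes of the list, Mir322, Mir431, Mir23a and Mir22, had log2 differences of -0.02, -0.04, -0.17 and -0.05. Mir128-1, known from muscle and brain, had the lowest value of the list, with 115 CPM in replicate 2 and 152 CPM in replicate 1 (log2 difference -0.40, adjusted p = 0.000464, same exact test). Every log2 difference on this list lay above the values of both skeletal members.

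Markers of further cell types were set beside them. The smooth muscle and mesenchyme list came to 24049 CPM in replicate 2, against 25038 CPM in replicate 1, and its lead gene Mir143 had a log2 difference of -0.08. The epithelial list came to 3683 CPM in replicate 2, against 3179 CPM in replicate 1. Its 7 genes all had log2 differences above 0, from 0.09 to 0.50. The most abundant, Mir429, stood at 1491 and 1365 CPM in replicates 2 and 1 (log2 difference 0.13), and Mir203 at 679 and 639 CPM (0.09). Mir200c stood at 672 and 475 CPM (0.50) and Mir200b at 441 and 354 CPM (0.32). The exact binomial test called 4 of the 7 higher, against 8.58% of all genes tested. All 7 were detected, and of the 367 detected genes 150 were called in either direction with the filter of 10 counts in each library. Of 9 neural genes with a row, 4 had 0 counts in both libraries. Copies of these 4 were not searched, so their counts may miss reads that match several places. Of the 9, 2 were called higher and 1 lower in replicate 2, against 8.58% and 11.5% of all genes tested. The called ones were among the 4 detected neural genes, for which the share of detected genes called is the closer base. By edgeR's exact test, 0 genes of the epithelial and neural lists were called. Mir137 stood at 76.0 CPM in replicate 2 and 53.3 CPM in replicate 1. The pancreas list summed to 1795 and 1671 CPM in replicates 2 and 1, nearly all of it Mir375. The lowest log2 difference among its detected genes was -1.30, for Mir216b with 12 counts in replicate 2 and 18 in replicate 1. This lay below both skeletal members.

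Among the cell types of the liver, the hepatocyte list came to 85387 CPM in replicate 2, against 84575 CPM in replicate 1, and the endothelial list to 55232 and 58209 CPM. The erythroid list came to 33035 CPM in replicate 2, against 17989 CPM in replicate 1, through Mir451a at 26342 and 10750 CPM. By edgeR's exact test Mir451a was called (adjusted p = 0.00197), and no other gene of the list was. Mir144, the neighbour of Mir451a in the same primary transcript, had a log2 difference of -0.13. The part of these lists in the differences of the members was not tested. The skeletal sum differed by 1.67 times between the libraries, with replicate 1 the higher, and of the marker lists above only the erythroid sum differed by as much, with replicate 2 the higher.

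**Figure D5:**
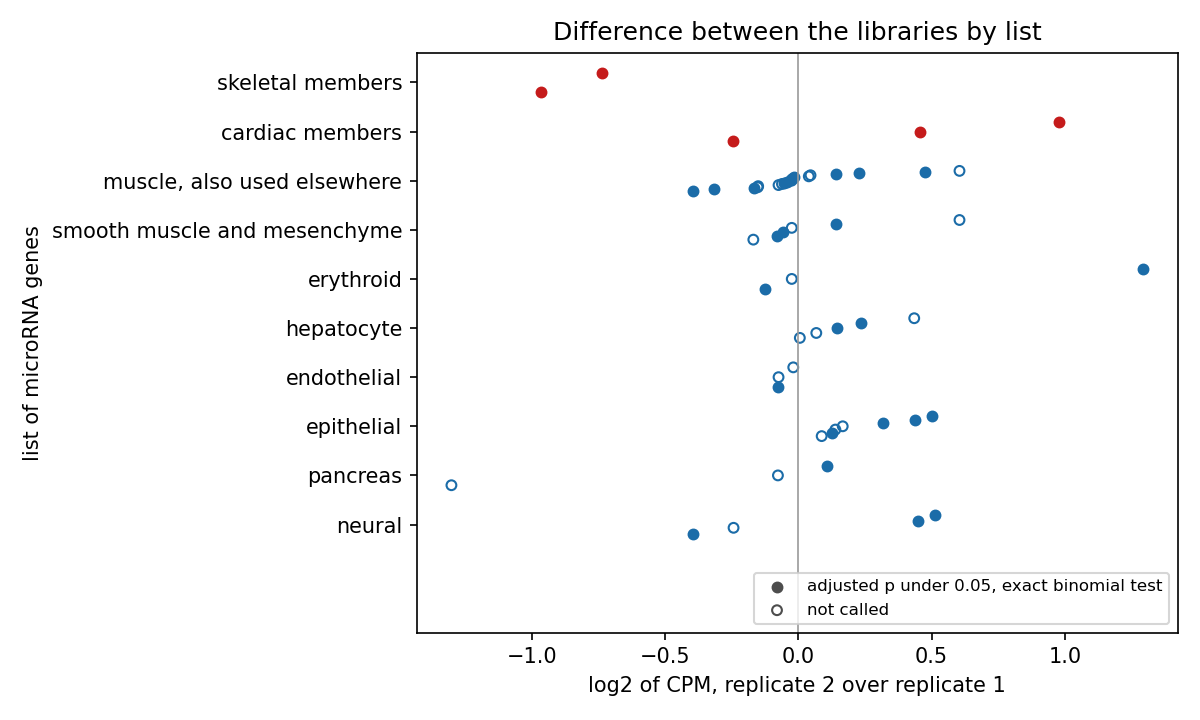
Log2 of CPM in replicate 2 over replicate 1 for genes with at least 10 counts in each library, by list, with filled points for an adjusted p under 0.05 (exact binomial test). The skeletal members lie at -0.97 and -0.74, the cardiac members from -0.25 to 0.98, and the 7 epithelial genes from 0.09 to 0.50. The lowest point of the pancreas list, at -1.30, lies below both skeletal members.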

How the data were processed

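Small RNA of 2 mouse liver libraries was sequenced, and the deposited tables hold raw counts of reads per microRNA gene for both strands, the strand of the gene and the opposite strand. Per the deposited list of files, the build was mm10 with GENCODE M4, and the sources used here name no aligner or counter. CPM was each same-strand count over the same-strand total. Names and positions came from GENCODE M21 on the same build, which held 1894 of the 1973 genes. A two-sided exact binomial test set each gene's counts in the libraries against the library totals; p-values were adjusted by Benjamini-Hochberg over 711 genes with a count, and calls were made at 0.05. Alternatives were both strands, TMM and DESeq2 scaling, a filter of 10 counts, and an edgeR exact test with a common dispersion. Python 3.11.15, scipy 1.17.1, matplotlib 3.10.9, R 4.3.3, edgeR 4.0.16 and DESeq2 1.42.0 were used. Both tests were run on simulated data, with a pass mark only for the exact binomial test without spread between libraries. These libraries had a spread of 13.6%, which that pass mark does not cover. Copies were searched among annotated hairpins, in words of 20 bases and windows of 22 bases. The genes named are the members, their neighbours in level and in difference, the other genes of their families and seeds, and up to 4 of the most abundant genes of each list. The members and lists were chosen with earlier results of these data known.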

Additional observations from a re-analysis of the deposited data

Results flagged for a closer look

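The column of reads on the opposite strand, which the comparisons do not use, held 4 counts opposite Mir1b in replicate 2 and 0 in replicate 1. Within replicate 2, 4 counts lie above the 3 counts at which a count of 0 is drawn here, which is a floor and not the exact Poisson interval. Replicate 1 was sequenced less deeply, and its count of 0 does not separate it from replicate 2 here. GENCODE M21 places Mir1a-2 on that strand of the locus.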

How the results depend on the processing

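The exact binomial test called 143 genes and 5 members. It called 135 to 153 genes, and 5 members each time, with both strands, TMM sizes, DESeq2 size factors or a filter of 10 counts in each library. The edgeR exact test with a common dispersion called 3 genes and 0 members, and by its construction it adds the spread between the libraries to counting error. No member's log2 difference changed sign under these settings. The number of detected members was 5 with a minimum of 1, 5 or 20 counts. Per 1000000 of all reads, in place of counts on the strand of microRNA genes, the summed level was 356, against 1045, because the divisor is larger. Leaving out each library gave sums of 860 to 1231 CPM and log2 skeletal to cardiac ratios of 0.69 to 1.38, against 1.03. Without Mir499 that ratio was 3.12, and without Mir206 it reversed to -4.80, by the removal of the largest term of each sum. No paired analysis was possible because both libraries belong to 1 group. With 2 libraries, the SD of each level is itself poorly known.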
